A study of Mus musculus with 3 samples.

Results

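The genes described here move or convert arginine and related amino acids in mouse lung lymphocytes. They are 7 in number: Arg1, Ass1, Slc7a8, Slc7a5, Slc3a2, Odc1 and Slc7a6. They were taken by symbol from the 32285 genes of 3 single-cell count matrices, of which 19021 had a unique molecular identifier (UMI, 1 counted RNA molecule) in the cells kept. The genes had been picked from earlier results of the same libraries, so their differences between the cell groups named here are descriptions and carry no test. The mice carried a GFP reporter of GFI1B, a transcriptional repressor that the series title links to multipotent lung innate lymphoid cells (ILC). Live lung cells gated as CD45+, negative for lineage markers, CD90.2+ and IL-7R+ were sorted into 3 libraries: IL-18R- ST2+ cells, a pool of IL-18R+ CD103+ GFP- with IL-18R+ CD103- GFP+ cells, and IL-18R- CD103- GFP- cells, called the library labelled negative. All 3 came from reporter mice. Each group is 1 library, and the sources used here give no age, sex, number or treatment of the mice. The barcodes of the pool are not assigned to either of its sorts.

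ARG1 splits arginine into ornithine and urea, and ODC1 decarboxylates ornithine in the first step of polyamine synthesis. ASS1 joins citrulline and aspartate in the step that limits the remaking of arginine. SLC7A8, SLC7A5 and SLC7A6 are light chains of membrane amino acid exchangers, each bound to the SLC3A2 heavy chain (CD98): the first pair carry large neutral amino acids, and SLC7A6 exchanges arginine against neutral amino acids. Lung group 2 innate lymphoid cells (ILC2), which respond to IL-33 through ST2 and release IL-5 and IL-13, are known for holding arginase 1 without stimulation.

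On GRCm38 the GENCODE annotation places Arg1 at chr10:24915221-24927484 on the minus strand and Ass1 at chr2:31470207-31520672 on the plus strand. Slc7a8 lies at chr14:54722209-54781946 on the minus strand, Slc7a5 at chr8:121881150-121907694 on the minus strand and Slc7a6 at chr8:106168857-106198706 on the plus strand. Slc3a2 lies at chr19:8706882-8723369 on the minus strand. Odc1 lies at chr12:17544794-17551505 on the plus strand and holds the small nucleolar RNA gene Gm22748 on the same strand. The 250 bases before the RefSeq start are shown for Slc7a8 and Ass1, since the results on ILC2 and Ccr10 gate cells turn on them. Both windows run past the GENCODE start given above into the gene. The set of RefSeq promoters (GRCm38.p6) used here held 5 of the 7 members, in 6 windows, and lacked Arg1 and Slc7a5. Bases are 5′ to 3′ on the strand of the gene, at chr14:54781887-54782136 on the minus strand for Slc7a8 and at chr2:31470020-31470269 on the plus strand for Ass1, and the capitals mark an E-box.
Slc7a8: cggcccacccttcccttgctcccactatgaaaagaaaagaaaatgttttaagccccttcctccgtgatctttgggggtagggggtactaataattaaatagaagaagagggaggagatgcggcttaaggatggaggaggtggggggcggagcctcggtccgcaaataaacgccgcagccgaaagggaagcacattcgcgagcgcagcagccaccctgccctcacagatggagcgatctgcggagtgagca
Ass1: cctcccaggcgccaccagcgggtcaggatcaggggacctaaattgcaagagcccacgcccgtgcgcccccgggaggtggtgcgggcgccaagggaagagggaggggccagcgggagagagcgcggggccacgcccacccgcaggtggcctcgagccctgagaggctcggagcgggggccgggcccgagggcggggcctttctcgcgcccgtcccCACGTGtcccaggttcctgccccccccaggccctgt
The E-box searched was CACGTG, which 6.02% of all 32851 promoter windows of this length held on either strand. The Ass1 window held 1, at position -36 from the RefSeq start and inside the gene as GENCODE places it. Neither window held the GATA letters searched (AGATAA or TGATAA, or either of these with G as the last letter, in 26.5% of all windows), the AP-1 letters TGANTCA (6.75%) or the amino acid response element letters TGATGNAA (3.45%), on both strands. A match in letters is a description and no evidence of binding.

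Of 1760, 1688 and 1903 barcodes in the IL-18R- ST2+ library, the IL-18R+ pool and the library labelled negative, 1622, 1659 and 1883 were kept as cells, with median depths of 4568.5, 4932 and 4772 UMIs. The pool and the library labelled negative shared 1 barcode, and no other pair shared any. Il18r1, the gene of the IL-18 receptor that should part them, was detected in 94% of T gate cells of the pool and in 87.3% of those of the library labelled negative, so that transcript did not follow the label. Most cells of both libraries carried CD3 transcripts: 1241 cells in the pool and 1665 cells in the library labelled negative had at least 2 UMIs of Cd3d, Cd3e and Cd3g and no Il1rl1 (the gene of ST2), and form the T gate. The ILC2 gate holds cells with an Il1rl1 UMI, which were 1511 among IL-18R- ST2+ cells, 20 in the pool and 22 cells in the library labelled negative. Cells with neither Il1rl1 nor any CD3 UMI, here CD3-negative cells, numbered 59, 248 and 160 in that order of libraries. Among them the Ccr10 gate, for a chemokine receptor of skin and mucosa, held 73 cells of the pool and 2 cells of the library labelled negative. Further gates described here are those for Ncr1 (ILC1 and NK gate), for Tcf7 with Il18r1 (progenitor gate) and the rest. Cells with 3 markers of one other lineage were set apart unless they had Ccr10.

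The gates were checked against marker lists. Cells of the ILC2 gate of the IL-18R- ST2+ library had UMIs of 16 of 16 ILC2 markers, summed to 9352 UMIs per 1000000 UMIs of the cells added up (UPM), with Gata3 at 879 UPM and Areg at 1684 UPM. Il1rl1, which defines the ILC2 gate, is among these 16 markers, so that list is only in part a check. The count of markers detected parts the gates little, as the T gate of the pool had 14 of 16, summed to 1946 UPM. At 20 UPM or more were 13 of the 16 in the ILC2 gate and 6 in that T gate. Cd3e was at 8.60 UPM in the ILC2 gate, against 775 UPM in the T gate of the pool, which Cd3e helps to define. The 4 erythroid markers summed to 1484 UPM in the ILC2 gate, against 5.73 UPM in the T gate of the pool, and their part in the values was not tested. In the Ccr10 gate Gata3 was at 307 UPM, and Tcf7 at 305 UPM. That gate also held T cell receptor chain RNA, with Trbc1 at 787 UPM in the IL-18R+ pool, and 243 of 247 CD3-negative cells of the pool without 3 markers of another lineage had a UMI of such a chain. Lists that hold such chains were not particular to it. The T cell list summed to 1736 UPM in the Ccr10 gate and 1101 UPM in the ILC2 gate, and the gamma delta list to 371 and 339 UPM. Gate names describe transcripts and are no proof of lineage.

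Slc7a8 and Arg1 were higher in the ILC2 gate than in the Ccr10 and T gates, Ass1 was higher in the Ccr10 gate than in both of these, and Slc3a2 and Odc1 were present in every large group. Across whole libraries, Slc7a8 had 2215 UMIs in the IL-18R- ST2+ library, 13 UMIs in the pool and 7 UMIs in the library labelled negative, or 278, 1.44 and 0.721 UPM. Arg1 had 1871, 294 and 210 UMIs, or 235, 32.7 and 21.6 UPM. Both were high in 1 library and low in the other 2 libraries. Ass1 ran in another order, at 13.6 UPM in the IL-18R- ST2+ library, 47.7 UPM in the pool and 25.0 UPM in the library labelled negative. Slc3a2 was at 279, 220.2 and 250.2 UPM and Odc1 at 795, 1067 and 1009 UPM, so neither parted the libraries by the 2-fold used as the size rule. Slc7a5 was at 14.9, 11 and 11.6 UPM and Slc7a6 at 7.66, 12.1 and 9.68 UPM. Those 2 genes stayed under 20 UPM, the level from which a gene was counted as measured.

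**Figure D1:**
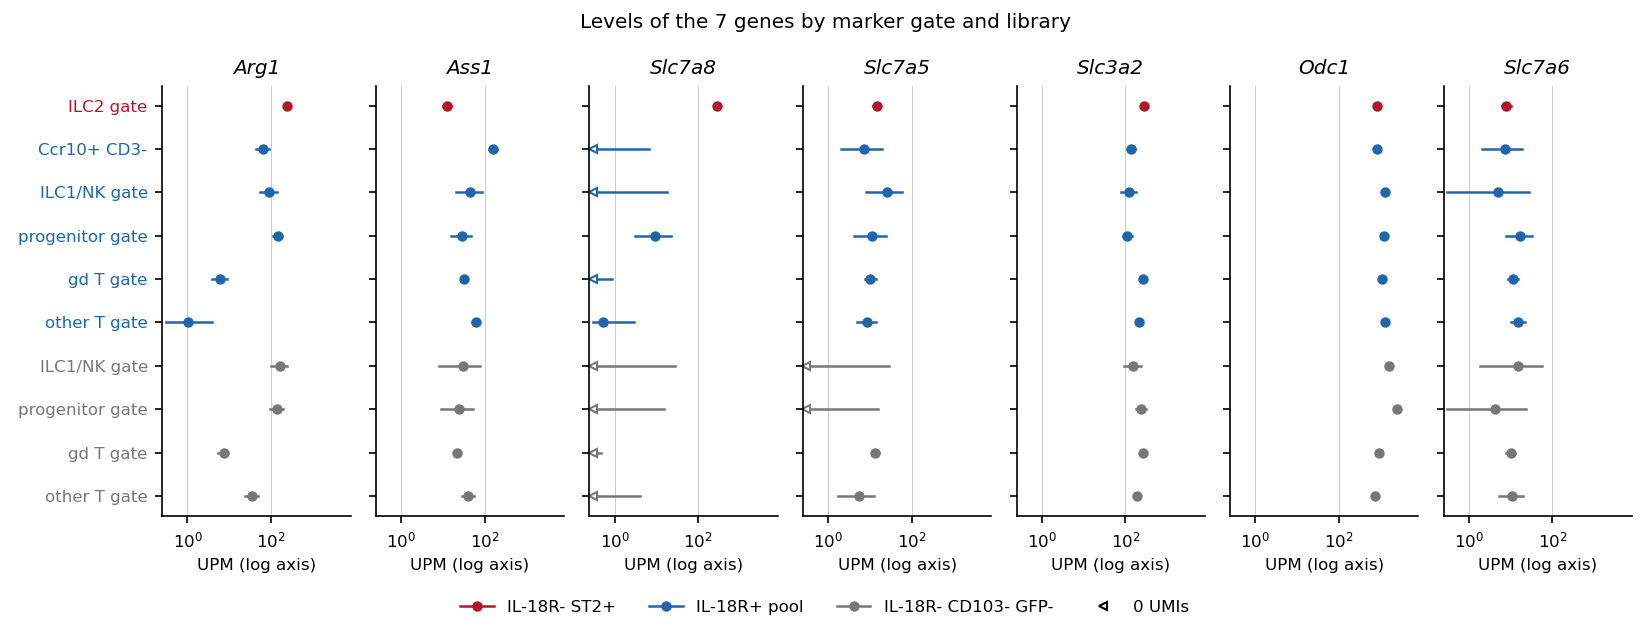
Level of each gene in UPM (log axis, 1 panel a gene) in the summed cells of selected gates, with the ILC2 gate of the IL-18R- ST2+ library on top; other gates, among them the rest gates and the small ILC2 gates of the other libraries, are not drawn. Points are summed counts, lines are 95% Poisson intervals of counting error and open triangles are 0 UMIs; Slc7a8 is at 286 UPM in the top row and at or below 9.36 UPM in the others drawn, and among the rows drawn Ass1 is highest in the Ccr10 gate at 157 UPM.

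With the ratio of summed counts and its 95% counting interval, IL-18R- ST2+ over the pool was 192 (112 to 362) for Slc7a8, 7.19 (6.35 to 8.16) for Arg1 and 0.284 for Ass1, which was 3.52-fold lower. Of the 7 members 5 were measured, with 2 higher and 1 lower by at least 2-fold. Among all 5928 genes measured, 4.34% were higher and 12.3% lower. Over the library labelled negative, Slc7a8 was at a ratio of 386 (187 to 960) and Arg1 at 10.9 (9.41 to 12.6), 2 of 5 members being higher and 0 lower, beside 5.4% and 9.61% of all measured genes. The pool over the library labelled negative gave 0 calls among 4 members in either direction, beside 2.55% and 0.792% of genes. Ass1 had the highest member ratio there, 1.90. Intervals here cover counting error alone, and with 1 library a group a sort and its library cannot be told apart.

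ARG1, the arginine-splitting enzyme, was followed through the gates first. Arg1 was at 244 UPM in the ILC2 gate of the IL-18R- ST2+ library, 62.8 UPM in the Ccr10 gate of the pool, and 4.46 UPM in the T gate of the pool and 10.2 UPM in that of the library labelled negative. An Arg1 UMI was seen in 52.8% of the 1511 ILC2 gate cells (Clopper-Pearson 95% interval 50.3 to 55.4), against 2.01% of the 1241 T gate cells of the pool, at median depths of 4598 and 4855 UMIs. With every cell thinned to 2000 UMIs the shares were 32.2% and 0.486%. The ILC2 gate was 54.7-fold over the T gate of the pool (37.7 to 82.5), and 23.8-fold over the T gate of the library labelled negative. It was 3.88-fold over the Ccr10 gate (2.77 to 5.62), a value that was 7.65 without the 3 cells with most Arg1 UMIs in each gate, since 7 of the 73 Ccr10 gate cells held 82.4% of that gate's Arg1 UMIs. Within the pool, the Ccr10 gate was 14.1-fold over the T gate (8.29 to 24.1) and 6.63-fold over it where a T cell needed 1 CD3 UMI.

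Outside the ILC2 gate, Arg1 RNA of the pool lay mainly in CD3-negative cells, with 216 of 289 UMIs. In the library labelled negative T gate and CD3-negative cells held like parts, 88 and 91 of 184 UMIs, but from 1665 and 160 cells. In the pool 106 cells outside the ILC2 gate had an Arg1 UMI, and T gate cells, 75.7% of the cells there, held 25 of those cells and 28 of the UMIs. In the library labelled negative, T gate cells were 53 of 103 such cells. CD3-negative cells were at 117 UPM in the pool, with an Arg1 UMI in 28.6% of 248 cells, and at 111 UPM in the library labelled negative, with one in 30% of 160 cells. Thinned to 2000 UMIs the shares were 15.4% and 13.3%. Both levels were below the 244 UPM of the ILC2 gate, by ratios of 2.08 (1.80 to 2.40) and 2.20 (1.78 to 2.74), and above the T gate of the same library.

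CD3-negative cells over T gate cells, a comparison within 1 library chosen after the data were seen, gave an Arg1 ratio of 26.3 (17.7 to 40.5) in the pool and of 10.8 (8 to 14.7) in the library labelled negative. The fall with CD3 was a step in the pool: an Arg1 UMI was in 28.7% of 247 cells with 0 CD3 UMIs, 40.9% of 22 cells with 1, 0% of 18 cells with 2 to 3, 3.33% of 60 cells with 4 to 7, and 1.98% of 1160 cells with 8 or more. In the library labelled negative the shares were 30%, 9.09%, 20%, 4.76% and 2.81% of 160, 11, 25, 105 and 1531 cells. Cells with 3 markers of another lineage are left out of these bins. The T gate of that library was not uniform. Its gamma delta T cells (with a Trdc UMI) were at 7.30 UPM and its other T cells at 34.4 UPM, a ratio of 0.212. In the pool the same groups were at 5.94 and 1.05 UPM, the other way round, on 26 and 2 UMIs.

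Arg1 was not confined to the ILC2 gate. In the pool the progenitor gate was at 144 UPM (31.3% of 67 cells), the rest at 144 UPM (28% of 50 cells), the ILC1 and NK gate at 89.7 UPM (24% of 25 cells) and the Ccr10 gate at 62.8 UPM (17.8% of 73 cells). Few cells carried much of this, as 7 progenitor gate cells held 64.9% of that gate's Arg1 UMIs and 5 cells of the rest held 76.2%. In the library labelled negative the ILC1 and NK gate was at 160.1 UPM, the progenitor gate at 136 UPM and the rest at 81.5 UPM. These gates do not make up all CD3-negative cells, and no order among gates is drawn from them. The 16 ILC2 markers summed to 3834 UPM in the CD3-negative cells of the pool and 3078 UPM in those of the library labelled negative, against 1946 and 1476 UPM in their T gates, and the part of such cells in the Arg1 level was not tested. Macrophages are a known source of Arg1 elsewhere. The 15 myeloid markers summed to 2.69 UPM in the ILC2 gate, 34.2 UPM in CD3-negative cells of the pool and 24.4 UPM in those of the library labelled negative, and 7.48 and 6.39 UPM in their T gates, with 8 and 6 of 15 markers detected in the CD3-negative cells. In the 25 pool cells with a single CD3 UMI, which are in none of these gates, the same list summed to 1995 UPM beside Arg1 at 213 UPM. The 6 stroma markers summed to 2769 UPM there. Their 33 Arg1 UMIs lay in 9 cells, 19 of them in 1 cell, and 0 of these 9 cells had 3 markers of another lineage. Both list sums are of all 25 cells. The 22 of them without 3 markers of another lineage held all 33 Arg1 UMIs. Cells of the pool with 3 markers of another lineage had an Arg1 UMI in 1 of 125, which held 12. The part of myeloid RNA in the CD3-negative values was not tested.

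**Figure D2:**
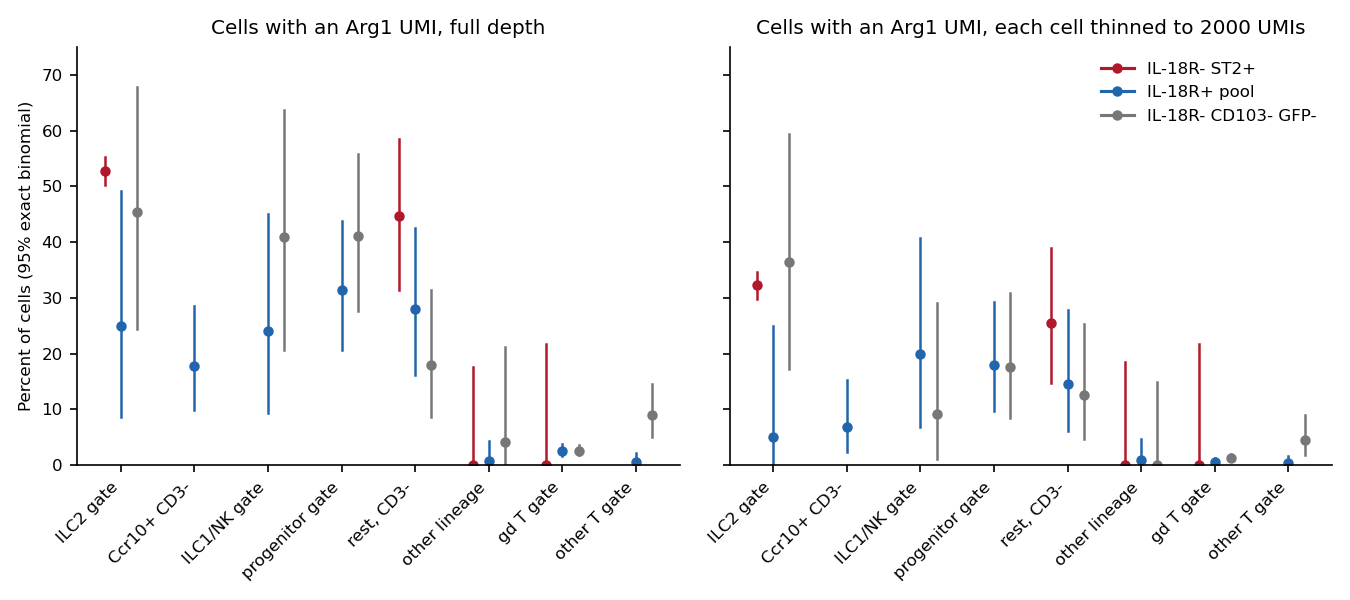
Percent of cells with an Arg1 UMI by gate and library, at full depth on the left and with cells thinned to 2000 UMIs on the right, for gates of at least 15 cells. Points are shares and lines Clopper-Pearson 95% intervals; the ILC2 gate of the IL-18R- ST2+ library is at 52.8% and the gamma delta T gates are at 2.55% for the pool and 2.58% for the library labelled negative at full depth.

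Slc7a8, the exchanger light chain for neutral amino acids (LAT2), had few UMIs outside the IL-18R- ST2+ library. It was at 286 UPM in the ILC2 gate, on 2130 UMIs and in 67.4% of cells (41.2% thinned), against 0 UMIs in the Ccr10 gate and 1 UMI in the T gate of the pool. The ratio to the T gate was 1798, with a counting interval of 322 to 71060 that reflects the single UMI. To the Ccr10 gate it was at least 51.7-fold higher, the Ccr10 gate being set to a floor of 3 UMIs. None of 902 gamma delta T cells of the pool and none of 1509 of the library labelled negative had a UMI, which allows shares of cells with a detected UMI of up to 0.333% and 0.199%, and sets no limit on cells that express the gene. The 56 cells of the IL-18R- ST2+ library in the rest gate, which had no Il1rl1 UMI and no CD3 UMI, were at 280.3 UPM, beside 14 of 16 ILC2 markers summed to 7969 UPM. That level lay within counting error of the level in the ILC2 gate. In the small ILC2 gates of the other libraries Slc7a8 had 0 UMIs in the 20 cells of the pool and 4 UMIs (34.9 UPM) in the 22 cells of the library labelled negative. Arg1 was at 42.7 UPM in those 20 cells and at 227 UPM in those 22 cells. The ILC2 gate did not exclude CD3 UMIs. T cell markers summed to 1904 and 2338 UPM in these 2 small gates, against 1101 UPM in the ILC2 gate of the IL-18R- ST2+ library. Their ILC2 markers summed to 6668 and 6369 UPM, against 9352 UPM. The part of T cells in the values of the small gates was not tested. The progenitor gate of the pool held 5 UMIs (9.36 UPM).

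Ass1, of the arginine-remaking step, was low in the ILC2 gate of the IL-18R- ST2+ library and high in the Ccr10 gate of the pool. It was at 12.6 UPM in the ILC2 gate (5.69% of cells), 157 UPM in the Ccr10 gate (49.3% of cells), 41.4 UPM in the T gate of the pool and 23.4 UPM in that of the library labelled negative. The ILC2 gate was 3.28-fold below the T gate of the pool (2.58 to 4.19), but at a ratio of 0.541 to the T gate of the other library, which does not reach 2-fold. The Ccr10 gate was 3.79-fold over the T gate of the pool (2.93 to 4.86). Its cells were deeper, with a median of 6863 UMIs against 4855 UMIs, and with cells thinned to 2000 UMIs an Ass1 UMI was in 26.0% of them, against 6.88% of T gate cells. The small ILC2 gates of the other libraries, which held more T cell marker RNA, were higher. They were at 51.2 UPM in the pool (20 cells) and 113 UPM in the library labelled negative (22 cells). The rest gate of the pool was at 68.7 UPM and its ILC1 and NK gate at 44.8 UPM. Other T cells were at 61.4 UPM in the pool and at 39.8 UPM in the library labelled negative, and gamma delta T cells at 32.7 UPM for the pool and 21.4 UPM for the library labelled negative. Of a cell cycle list, 9 of 9 measured genes were at least 2-fold lower in the ILC2 than the Ccr10 gate. Among all measured genes 17.5% were lower. Against the T gate of the pool, 9 of 9 were higher in the Ccr10 gate, beside 8.41% of genes, as was Ass1. Top2a stood at 205 UPM in the Ccr10 gate against 22.9 UPM in the T gate of the pool. In some other comparisons cycling genes and Ass1 differed in their calls but not in direction. For the ILC2 over the T gate of the pool 0 of 2 measured cycling genes were called, at a median log2 ratio of -0.71, while Ass1 was lower. For CD3-negative over T gate cells of the pool 9 of 9 were higher, beside 7.52% of genes, while Ass1, at 1.74 (1.40 to 2.16), was not called. For the whole IL-18R- ST2+ library over the pool 6 of 6 were lower, beside 12.3% of genes, as was Ass1. For the whole pool over the library labelled negative 6 of 6 were higher, beside 2.55% of genes, and Ass1, at 1.90, was not called. Ccr10 gate cells with an Mki67 or Top2a UMI had Ass1 at 188 UPM, against 128 UPM in those without (ratio 1.47, 0.937 to 2.33). The same split gave 97.8 against 59.1 UPM over all CD3-negative cells of the pool (1.66, 1.16 to 2.36) and 112 against 37.6 UPM in its T gate (2.99, 2.04 to 4.27), and 26.0 against 23.2 UPM in the T gate of the library labelled negative (1.12, 0.568 to 2.00). The part of cycling in the difference between gates was not tested.

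Itgae, the gene of CD103, parted the CD3-negative cells of the pool by Ass1 and Arg1 in opposite ways. This split was chosen after the data were seen and is by transcript, not by the sorts. In the Ccr10 gate, the 45 cells with an Itgae UMI had Ass1 at 205 UPM and the 28 without at 75.1 UPM, a ratio of 2.73 (1.55 to 5.13). Arg1 was at 11.7 UPM in cells with Itgae, in 4 of 45 cells, against 150.2 UPM without, in 9 of 28 cells, a ratio of 0.0779. Odc1 was at 518 UPM with Itgae, in 35 of 45 cells, and 1382 UPM without, in 19 of 28 cells (0.375). The share of cells with Odc1 was thus not lower with Itgae, and 7 of the 73 Ccr10 gate cells held 52.8% of that gate's Odc1 UMIs. Over all CD3-negative cells of the pool (64 with and 184 without), Ass1 was at 174 against 39.4 UPM (4.42, 3.09 to 6.36), Arg1 at 15.6 against 149.8 UPM (0.104) and Odc1 at 625.5 against 1279 UPM (0.489). The Ccr10 gate supplied 45 of these 64 cells and 70 of their 78 Ass1 UMIs. An Odc1 UMI was in 50 of the 64 cells with Itgae and in 139 of the 184 without. Median depth was 6863 UMIs with Itgae and 6698.5 UMIs without in the Ccr10 gate, and 5628.5 UMIs with and 6755 UMIs without over all CD3-negative cells; its part was not tested.

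In the T gate of the pool the same ratios lay nearer to 1. Its 483 cells with Itgae had Ass1 at 47.7 UPM, Arg1 at 4.33 UPM and Odc1 at 1180.0 UPM, against 37.1, 4.54 and 1124 UPM in the 758 without, at ratios of 1.28 (0.998 to 1.65), 0.954 (0.404 to 2.16) and 1.05. In the library labelled negative only 4 CD3-negative cells had Itgae, with 5 UMIs of Ass1 (144 UPM, against 24.2 UPM in the 156 cells without).

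**Figure D3:**
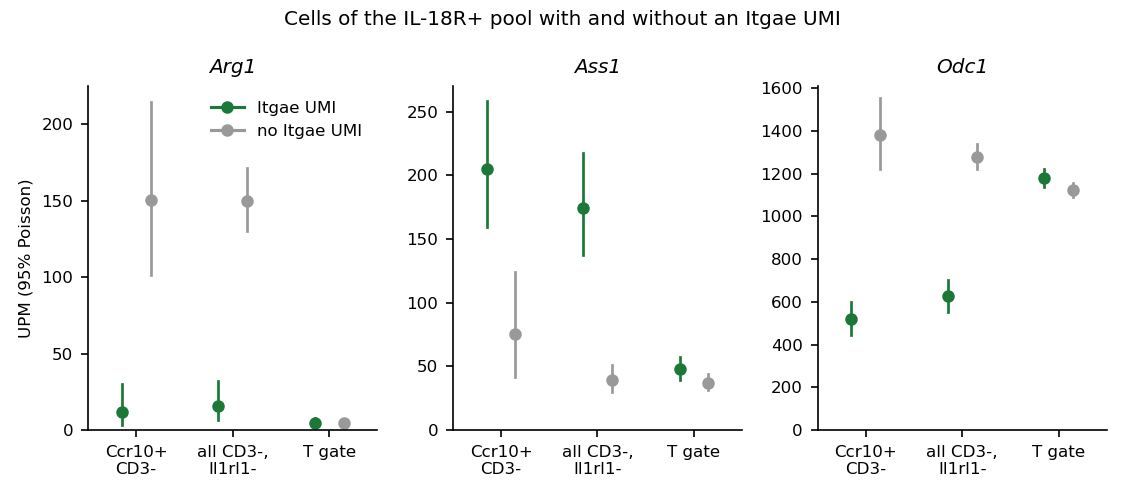
Level in UPM (linear axis from 0) of Arg1, Ass1 and Odc1 in cells of the IL-18R+ pool with an Itgae UMI and without one, in the Ccr10 gate, all CD3-negative cells and the T gate. Points are summed counts and lines 95% Poisson intervals; in CD3-negative cells Ass1 is higher and Arg1 and Odc1 are lower with Itgae, while in the T gate the pairs of points lie close together.

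Slc3a2, the shared heavy chain (CD98), differed little between ILC2 and T cells. It was at 280.5 UPM in the ILC2 gate, 138 UPM in the Ccr10 gate, 250.1 UPM in the T gate of the pool and 254 UPM in that of the library labelled negative. The ILC2 gate stood at ratios of 1.12 to the T gate and 2.03 (1.61 to 2.59) to the Ccr10 gate. Low values were those of CD3-negative cells of the pool, at 129.7 UPM and 0.519 of their T gate, whereas CD3-negative cells of the library labelled negative were at 232 UPM, close to the T gate of that library. Slc7a5 (LAT1), the other light chain for neutral amino acids, was at 14.6 UPM in the ILC2 gate, 7.39 UPM in the Ccr10 gate and 9.71 UPM in the T gate of the pool. Slc7a6 was at 7.93, 7.39 and 12.7 UPM in the same gates. At these levels neither was measured in any of the comparisons between ILC2, Ccr10 and T gates.

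Odc1, the enzyme that makes putrescine, lay within 2-fold between the ILC2, Ccr10 and T gates. It was at 807 UPM in the ILC2 gate, 836 UPM in the Ccr10 gate, 1146 UPM in the T gate of the pool and 871 UPM in that of the library labelled negative. Levels were higher in CD3-negative cells of the library labelled negative, with 2468 UPM in the progenitor gate, 1811 UPM in the rest and 1578 UPM in the ILC1 and NK gate. All its CD3-negative cells together, of which these 3 gates are only a part, were at 2520.1 UPM, above each of them and 2.89-fold over their T gate (2.75 to 3.04). In the pool the CD3-negative cells were at 1120.2 UPM, close to their T gate. Cells with an Il22 UMI were higher than those without, a split chosen after the data were seen: 17 such CD3-negative cells of the library labelled negative were at 6074 UPM, against 2063 UPM in 143 without (2.94), and 3 in the pool at 6327 UPM, against 1046 UPM. In the T gates the Il22 ratio was 1.38 in the pool and was 1.54 in the library labelled negative. In cells with 3 markers of another lineage Odc1 was at 82.0 UPM in the IL-18R- ST2+ library (19 cells), 195 UPM in the pool (125 cells) and 355 UPM in the library labelled negative (24 cells).

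Counted by the size rule, the ILC2 gate over the T gate of the pool gave 2 members higher (Arg1, Slc7a8), 1 lower (Ass1) and 2 neither, of 5 measured, beside 5.72% of 5771 genes higher and 11.4% lower. The median log2 ratio of the members was 0.17, against -0.28 for all measured genes. Over the Ccr10 gate it gave 3 higher (Arg1, Slc7a8, Slc3a2) and 1 lower (Ass1) of 5, beside 7.87% and 17.5% of genes, with medians of 1.02 and -0.29. Ccr10 over T cells of the pool gave 2 higher (Arg1, Ass1) and 0 lower of 4, beside 8.41% and 8.64%. As the genes were chosen for these contrasts, the counts describe the choice.

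The 8 comparisons added after the data were seen gave these shares of called genes. For CD3-negative over T gate cells, 7.52% were higher and 5.24% lower in the pool, with 1 member higher (Arg1), and 7.13% and 3.38% in the library labelled negative, with 2 members higher (Arg1, Odc1). For the ILC2 gate over CD3-negative cells, 5.21% and 15% of genes were called against the pool, with 3 members higher and 1 lower, and 4.15% and 13.7% against the library labelled negative, with 2 higher (Arg1, Slc7a8) and 2 lower (Ass1 at 0.432 and Odc1 at 0.320). For the pool over the library labelled negative, CD3-negative cells had 4.94% higher and 4.76% lower, with Ass1 higher at 2.47 (1.59 to 3.99) and Odc1 lower at 0.444, and T gate cells had 0.481% and 1.25%, with 0 members called in either direction. For gamma delta over other T cells the shares were 2.09% and 2.16% in the pool and 3.93% and 1.7% in the library labelled negative, with 0 members called in the pool and 1 lower (Arg1) in the library labelled negative.

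**Figure D4:**
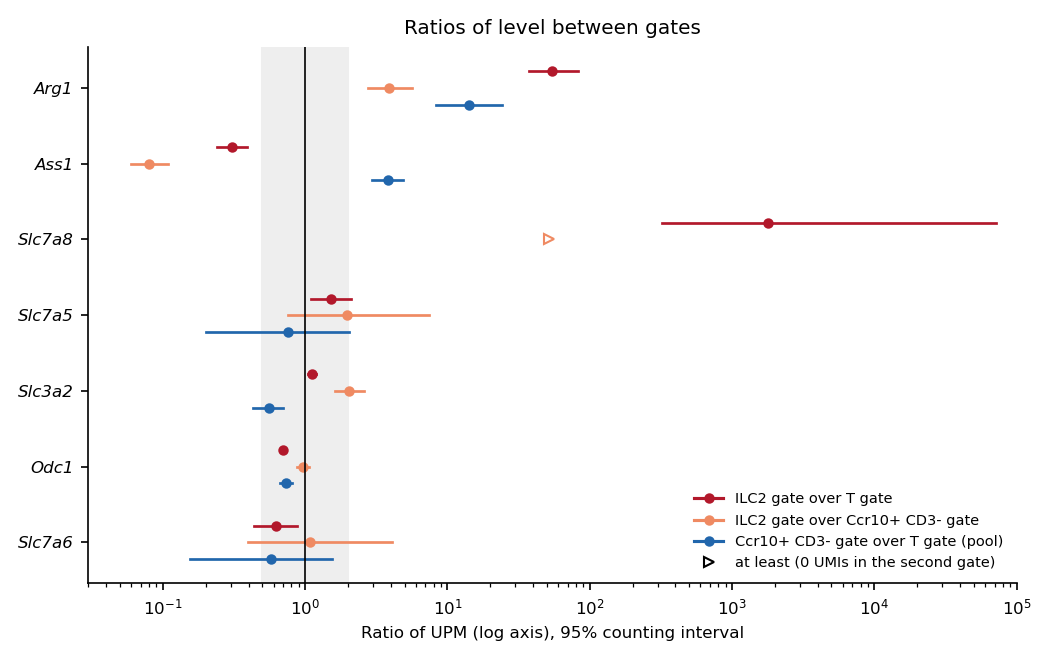
Ratio of UPM (log axis) of each member for the ILC2 gate over the T gate, the ILC2 gate over the Ccr10 gate and the Ccr10 gate over the T gate. Lines are 95% counting intervals, the grey band spans 0.5 to 2 and an open triangle is a lower bound (Slc7a8 in the Ccr10 gate over the T gate, with 0 UMIs against 1, is not drawn); Slc7a8 and Arg1 lie to the right for the ILC2 gate, and Ass1 lies left of 1 there.

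Within the ILC2 gate of the IL-18R- ST2+ library the members varied from cell to cell. Among 1499 cells thinned to 2000 UMIs, 196 held both Arg1 and Slc7a8, where the product of the single shares gives 199. Slc7a8 with Slc3a2, the light and heavy chain of 1 exchanger, gave 279 against 256. Of the 1511 cells, the 151 with most Arg1 held 45.1% of its UMIs, and the 151 with most Slc7a8 held 32.2%. The 343 thinned cells with an Il5 or Il13 UMI, the effector cytokines of ILC2, had Arg1 at 313 UPM, against 218 UPM in the 1156 without (1.44, 1.22 to 1.69), and Odc1 at 1067 against 726 UPM (1.47, 1.35 to 1.60). Slc7a8 did not follow the cytokines, at a ratio of 1.05 (0.891 to 1.22). Split by Arg1 instead, the 483 cells with an Arg1 UMI had Il5 at 149.1 UPM, against 148.6 UPM in the 1016 without (0.817 to 1.23). An Il5 UMI was in 15.9% and 12.5% of these cells. Il13 was at a ratio of 1.12 (0.933 to 1.34) and Odc1 at 0.919 (0.842 to 1.00). Cells with Klrg1, an inhibitory receptor of mature ILC2, had 1.25 times the Arg1 of cells without (1.06 to 1.46). The 15 cells with Mki67 or Top2a had Odc1 at 100 UPM, on only 3 UMIs, against 811 UPM in the 1484 without (0.123, 0.0254 to 0.361). These splits are within 1 library, whose cells share their source.

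**Figure D5:**
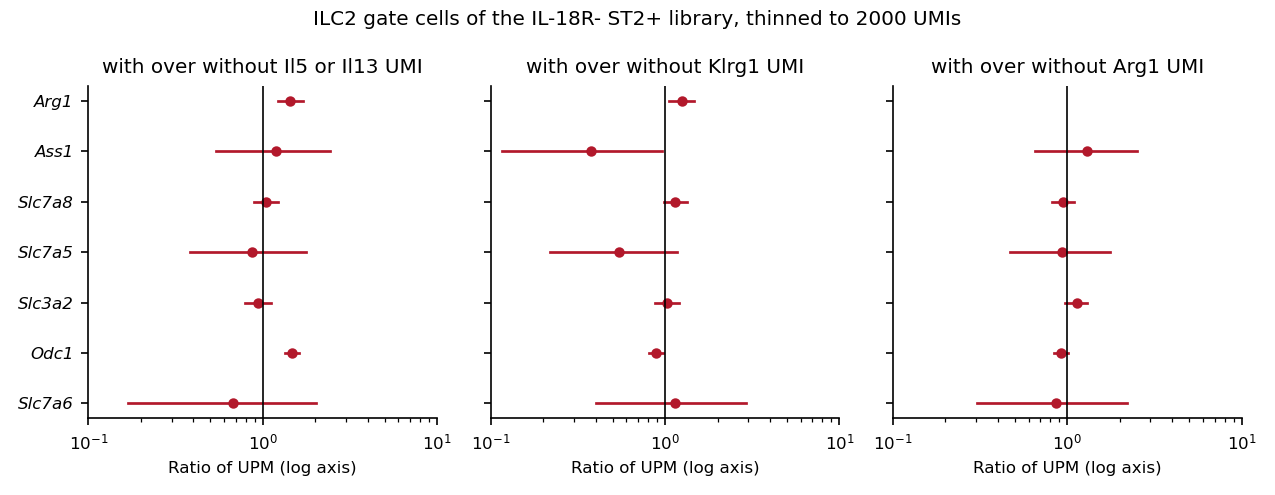
Ratio of UPM (log axis) of each member in ILC2 gate cells of the IL-18R- ST2+ library with a UMI of the named gene over those without, after thinning to 2000 UMIs. Lines are 95% counting intervals; Arg1 and Odc1 lie above 1 for Il5 or Il13, at 1.44 and 1.47, while Slc7a8 lies at 1.05.

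The other genes of the pathways were read from lists, beside the 5.72% of all measured genes higher and 11.4% lower in the ILC2 gate than in the T gate. None of the 13 other genes of arginine and the urea cycle reached 20 UPM in the ILC2 or T gate. Of proline and ornithine genes 2 were measured and 0 called, with Oat, which turns ornithine towards proline and glutamate, at 29.7 UPM in the ILC2 gate and 45.5 UPM in the T gate of the pool. Of the 12 other polyamine genes measured, 1 was higher and 2 lower in the ILC2 gate. Atp13a3, a polyamine transporter, was at 94.9 against 47.1 UPM. The polyamine oxidases were lower, Smox at 19.2 against 195 UPM and Paox at 4.84 against 20.7 UPM. Of 7 other amino acid transporters, 1 was lower, the glutamine carrier gene Slc1a5 at 50.1 against 115 UPM, and Slc38a2 was at 516 against 281 UPM, under 2-fold. The arginine carrier gene Slc7a1 was at 53.1 against 50.3 UPM. Of 11 genes of amino acid sensing and mTORC1, 0 were called. Of 6 MYC genes 1 was higher, Myc itself at 52.4 against 16.1 UPM, and of 5 genes of the ATF4 response 1 was lower, Ddit3 at 9.81 against 20.4 UPM.

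Over the Ccr10 gate, where 17.5% of all measured genes were lower and 7.87% higher, the ILC2 gate was lower for 6 of 8 measured ATF4 response genes, among them Phgdh, the first enzyme of serine synthesis, at 21.4 against 68.3 UPM. Among 13 genes of the mTORC1 list 3 were lower, among them Ddit4, an mTORC1 inhibitor induced by stress, at 23.9 against 64.6 UPM. Myc was higher in the ILC2 gate, at 52.4 against 7.39 UPM.

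The genes most like each member over 12 gates of at least 50 cells, by Pearson correlation of log2(UPM + 1), were Rgs18 (r = 0.96), Gm20342 and Jak2 for Arg1, Grin2d (r = 0.97), Rb1 and Klf5 for Slc7a8, and Hmgb2 (r = 0.89), Idh3a and Srp9 for Ass1. For Odc1 they were Cnbp (r = 0.99), Ormdl3 and Bola3, and for Slc3a2 Socs2 (r = 0.92), Rabac1 and AI504432. For the low genes they were Ccdc167 (r = 0.96), Syvn1 and Nvl for Slc7a5, and Gtpbp4, Rnf34 and Mtmr14 (r = 0.97 each) for Slc7a6. Between members, Arg1 with Slc7a8 gave r = 0.57 and Arg1 with Ass1 r = -0.14. The 12 points share 3 libraries and differ in depth, and the values are a description.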

How the data were processed

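Per the labels' protocols, lungs were perfused and digested, lymphocytes were enriched on Percoll and sorted, and libraries were made with a 10x Genomics single cell 3' kit. Per the submitters' processing notes Cell Ranger 6.0.1 and the build mm10 were used; the annotation is not given in the sources used here. The deposited matrices hold raw counts: each entry is the number of UMIs of 1 of 32285 genes under 1 barcode, not normalised, in 1 matrix for each of 3 libraries. Raw reads were not used. Levels in 1 further gate of CD3-negative cells are not reported here.

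Barcodes were dropped under 500 genes or over 10% mitochondrial UMIs. Counts were summed over the cells of a gate and given as UMIs per 1000000 (UPM). A gene was measured in a comparison if either side reached 20 UPM, and called at a ratio of at least 2 with sums raised to a floor of 3 UMIs; ratios in the text are as counted. Intervals are 95% Poisson (levels), exact conditional binomial (ratios) and Clopper-Pearson (shares), and cover counting error only. Each group being 1 library, nothing was tested and cells were not used as replicates. The size rule was tested on simulated counts. No free RNA was removed, and its part in the levels and shares was not measured. Doublets were kept in the main values: Scrublet called 28 of 5164 cells (0.542%), and values without them are an alternative.

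There were 6 planned comparisons and 8 added ones. The added ones, the bins by CD3 UMIs and the splits of CD3-negative and T gate cells by Itgae, Il22 and cycling transcripts were chosen after seeing the data. The 7 members, the 10 pathway lists and the marker lists were chosen with earlier results of these data known. Genes named are the members, up to 4 measured genes of each pathway list with the largest absolute log2 ratio of ILC2 over T gate, the 3 measured genes most like each member and the gate markers. Scripts used Python 3.11.15, numpy 2.4.6, scipy 1.17.1, pandas 2.3.3, scanpy 1.11.5 and matplotlib 3.10.9.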

Additional observations from a re-analysis of the deposited data

How the results depend on the processing

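No paired analysis was possible because each group is 1 library with no replicate number in its labels. Of 1867 values under other settings, 1698 stayed within their bounds, 169 moved and 0 changed sign as a called value. By setting, the counts of members that moved were these. With a minimum of 50 UPM the lower count was 0 for IL-18R- ST2+ over the pool and 0 for the ILC2 over the T gate (Ass1), which was also 0 with the T gate of the library labelled negative. With a ratio of 1.5 the lower count was 1 for IL-18R- ST2+ over the library labelled negative, and the higher count 2 for the pool over that library, which was 1 with no minimum level and 1 without cells with 3 markers of another lineage. For Ccr10 over T gate cells the lower count was 1 without the 3 cells with most UMIs, with a ratio of 1.5, thinned, and with at least 2 Ccr10 UMIs. For CD3-negative over T gate cells of the pool the higher count was 2 with no minimum, as a mean over cells, with a ratio of 1.5 and thinned, and the lower count 1 (Slc3a2) with TMM, with median of ratios, with a ratio of 1.5 and with all barcodes; in the library labelled negative the lower count was 1 with no minimum. For the ILC2 gate over CD3-negative cells of the library labelled negative the lower count was 1 in place of 2 with TMM, with median of ratios, with 50 UPM, as a mean over cells and without the 3 cells with most UMIs. The share of cells outside the ILC2 gate with Arg1 depended on depth: in the pool 6.47% of all, 28.6% of CD3-negative and 2.01% of T gate cells, against 2.96%, 15.4% and 0.486% thinned and 2.93%, 16.5% and 0.161% with at least 2 UMIs; in the library labelled negative 5.53%, 30% and 3.18%, against 2.55%, 13.3% and 1.52% thinned and 2.31%, 15% and 1.08%. Where scaling moved the median gene by over 0.1 on the log2 scale, the shift of the first group over the second was at most 0.39 (ILC2 gate over CD3-negative cells of the pool), and 0.24 for ILC2 over T and 0.33 for ILC2 over Ccr10 with TMM. The Odc1 ratio of ILC2 over Ccr10 was 0.965 and 1.21 with TMM. Depth limits Slc7a5, Slc7a6 and the gates of few cells.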
